A study of Caenorhabditis elegans with 6 samples.

Results

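The dod genes are named for lying downstream of DAF-16, the FOXO transcription factor of Caenorhabditis elegans. Of 9 dod genes listed (dod-3, dod-6, dod-17, dod-19, dod-20, dod-21, dod-22, dod-23 and dod-24), 8 had a probe on the array, each with 1 probe, and all 8 passed the filter on dim probes, out of 18124 genes with a matched probe, 14655 of which had a tested one. No probe carried the sequence name of dod-21, which was not analysed here. The genes were chosen by name with their mutant over wild-type ratios on these arrays already known, so those ratios are given as a description, without a test.

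Steady-state mRNA was compared between young adults carrying the n4759 allele of the microRNA gene mir-243 and young adults of the wild-type strain N2. All RNA came from whole worms, so fewer cells of a type and less RNA per cell cannot be told apart. There were 3 biological replicates, and the mutant and the N2 cDNA of each were hybridised together to 2-colour arrays in both dye orientations, which gave 6 arrays. Replicates 1 and 2 lay on one slide and replicate 3 on another. The allele is a single one, and its deletion was not checked here.

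Insulin-like peptides act through the receptor DAF-2 and a kinase cascade that keeps DAF-16 out of the nucleus. When this signalling is low, DAF-16 enters the nucleus and the worm lives longer and resists stress better. The dod genes are known as 2 classes. The genes dod-3 and dod-6 belong to the class that is raised when insulin signalling is low, and dod-17 to dod-24 belong to the class that is lowered, on which the zinc finger factor PQM-1 is known to act. Several of the second class, among them dod-17, dod-22 and dod-24, are known as intestinal genes that respond to pathogens.

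Every ratio below is log2 of mutant over N2 after background correction, averaged over both dye orientations of a replicate. Levels are normalised log2 intensities, which are comparable between genotypes for 1 probe and not between probes. The share of gene spots that stood well above background ran from 74.8% to 80.2% on the Cy3 side and from 76.3% to 83.0% on the Cy5 side, and replicates correlated across probes with r between 0.987 and 0.990. Correction added an offset of 50 to each signal, which draws the ratios of dim probes towards 0. The precision is limited by the 3 replicates.

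In the mutant, 4 dod genes were at least 2-fold lower, namely dod-24, dod-3, dod-23 and dod-17, and none was at least 2-fold higher. Over the 16272 tested probes, 7.09% were called lower and 9.18% higher, a call being a fold of at least 2 with an adjusted p under 0.05 (limma, Benjamini-Hochberg). The median ratio of the 8 genes was -0.96 with an SD of 0.12 over the replicates, beside -0.0081 for all tested probes. Of the 8 genes, 6 lay below 0 and 2 above. The choice of genes used these ratios, so nothing is read from the counts.

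**Figure D1:**
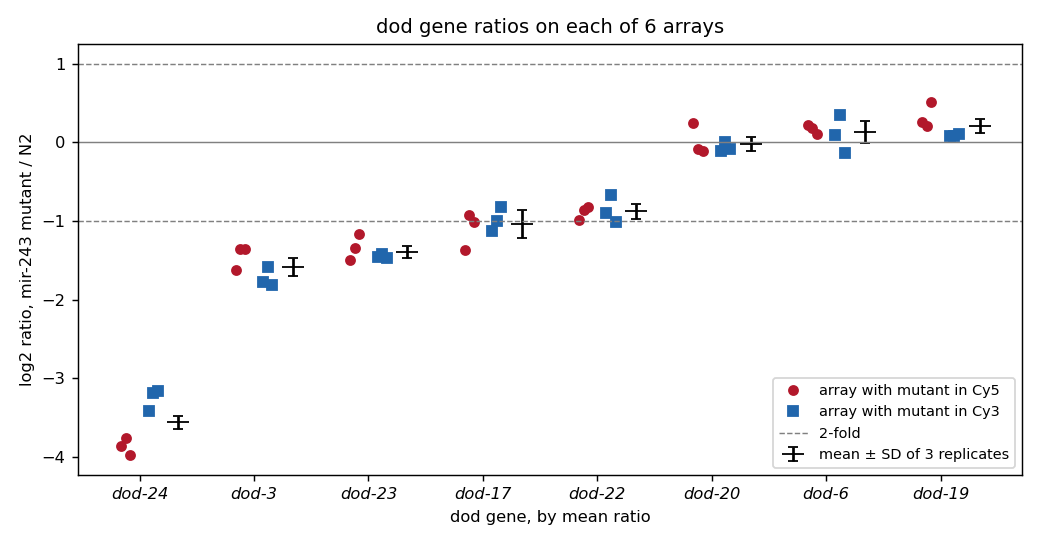
Log2 ratio of mir-243 mutant over N2 (y axis) for 8 dod genes (x axis, by mean ratio) on each array, with circles for the mutant in Cy5, squares for the mutant in Cy3 and a bar for the mean ± SD of 3 replicates. The genes dod-24, dod-3, dod-23 and dod-17 averaged beyond the 2-fold line, while dod-20, dod-6 and dod-19 lay near 0, and dod-19 fell below 0 with median centring.

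The largest difference among the dod genes was that of dod-24, a gene of the class lowered with low insulin signalling. Its normalised log2 intensity was 7.79, 7.98 and 7.65 in mutant replicates 1 to 3, against 11.43, 11.45 and 11.22 in N2. All mutant values lay below all N2 values, though the share of all probes without such overlap was not counted. The ratio was -3.56 ± 0.0836 (SD, n = 3), which is 11.8-fold lower and 8.49% of the N2 level. Only 4 of the tested probes, dod-24 included, had a ratio that low. The dye orientations differed in size but not in sign, with -3.85, -3.75 and -3.98 when the mutant was in Cy5 and -3.42, -3.18 and -3.16 when it was in Cy3.

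The gene dod-3, of the class raised with low insulin signalling, was also lower in the mutant. Its log2 intensity was 9.13, 9.06 and 9.18 in the mutant, against 10.83, 10.53 and 10.76 in N2, without overlap. The ratio was -1.58 ± 0.115 (SD, n = 3), 3.00-fold lower, and was below 0 on 6 of 6 arrays. For dod-23, of the lowered class, the log2 intensity was 9.02, 9.13 and 9.14 in the mutant, against 10.51, 10.51 and 10.46 in N2. These values did not overlap either, though for both genes the share of all probes without overlap was not counted. The dod-23 ratio of -1.40 ± 0.0809 (SD, n = 3) was 2.63-fold lower on average and below 0 on 6 of 6 arrays.

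The 2-fold mark ran between dod-17 and dod-22, which lie near each other on chromosome IV. Just inside it, dod-17 had log2 intensities of 8.77, 9.10 and 8.78 in the mutant, against 10.01, 10.06 and 9.69 in N2. Its ratio was -1.04 ± 0.181 (SD, n = 3), 2.06-fold lower, and stayed below 0 on 6 of 6 arrays. Without replicate 1 the ratio of dod-17 was -0.94 and no longer reached 2-fold. Just outside it, dod-22 had 6.59, 6.50 and 6.51 in the mutant, against 7.53, 7.27 and 7.43 in N2, and a ratio of -0.88 ± 0.0947 (SD, n = 3), 1.84-fold lower. The dod-22 probe was dim and was well above background in the mutant on 4 of 6 arrays, and its ratio was -2.37 from the scanner's processed signals and -0.62 without background correction.

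**Figure D2:**
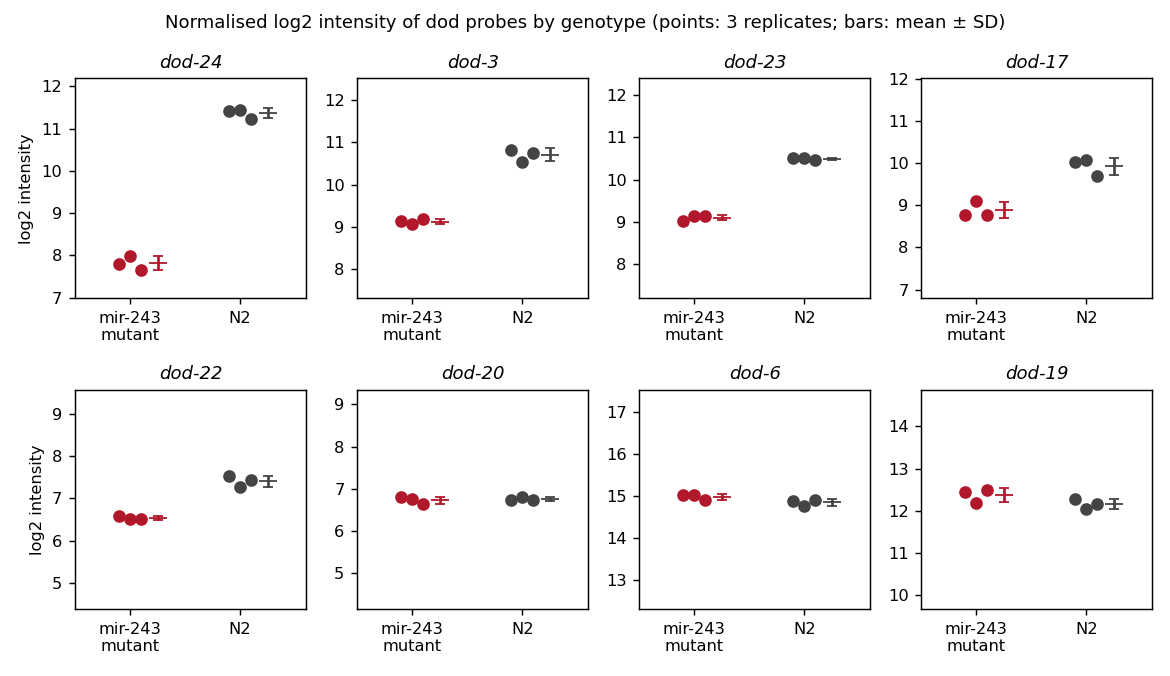
Normalised log2 intensity (y axis) of 8 dod probes in mir-243 mutant worms (left) and N2 worms (right), with 1 point for each of 3 replicates and a bar for the mean ± SD. The y axes span the same number of log2 units but not the same levels. The genotypes do not overlap for dod-24, dod-3, dod-23, dod-17 and dod-22, and the share of all probes without overlap was not counted.

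The other 3 genes had overlapping levels in mutant and N2 worms. The dim probe of dod-20 had 3 replicate ratios of 0.07, -0.05 and -0.10, a mean of -0.025 ± 0.0885 (SD, n = 3). The gene dod-6, of the raised class, had log2 intensities of 15.02, 15.03 and 14.89 in the mutant, against 14.87, 14.76 and 14.91 in N2. Its ratio was 0.13 ± 0.139 (SD, n = 3), and replicate 3 was the one replicate with a mean below 0. The gene dod-19 had 12.44, 12.18 and 12.48 in the mutant, against 12.28, 12.04 and 12.17 in N2, and a ratio of 0.21 ± 0.0922 (SD, n = 3) that was above 0 on 6 of 6 arrays but was -0.095 when each array was centred on its median in place of loess.

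Ordered by mean ratio from lowest to highest, the genes ran dod-24, dod-3, dod-23, dod-17, dod-22, dod-20, dod-6 and dod-19. The replicate ranges of dod-3 and dod-23 overlapped, as did those of dod-17 and dod-22, of dod-20 and dod-6, and of dod-6 and dod-19. With this processing, the steps from dod-24 to dod-3, from dod-23 to dod-17 and from dod-22 to dod-20 were free of overlap. The order itself depended on the processing. With the deposited ratios dod-22 was at -2.27, below dod-3 at -1.83 and dod-23 at -1.64. With an offset of 10 it was at -1.32, below dod-17 at -1.10. Within the first slide, dod-24 averaged -3.55, and its value on the second slide was -3.57. The slide values of dod-17 were -1.10 and -0.91, and those of dod-3 were -1.59 and -1.58. No spot of the 8 probes was saturated.

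The array held 1 more dod gene with a matched probe, dod-18, which was not among the chosen genes. Its ratio was -0.40 ± 0.0544 (SD, n = 3) with an adjusted p of 1.45e-06 (limma), which did not reach 2-fold. The gene was added after its value was seen. Of all tested probes, 41.3% were lower with an adjusted p under 0.05 at any fold.

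The genes with the pattern most like that of dod-24, by Euclidean distance over the 6 array ratios among 16264 probes, were C10G8.4, C15B12.8 and spex-3. Their ratios were -3.41, -3.40 and -3.23, at distances of 0.685, 0.806 and 0.923. For dod-19, at the other end of the order, the nearest were F54H12.3, F36D1.4 and nhj-1, with ratios of 0.22, 0.21 and 0.19 and distances of 0.103, 0.126 and 0.136.

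On chromosome IV, dod-21, dod-24, dod-22 and dod-17 stand within a run of 19 consecutive protein-coding genes in the RefSeq gene order. Among the 15 other genes of that run, 11 were tested. Of these, 2 were called lower and 2 higher, beside 7.09% and 9.18% of all tested probes. With an adjusted p under 0.05 (limma) at any fold, 7 were lower and 3 higher, beside 41.3% and 42.3% of all tested probes. The 7 lower genes stand from F55G11.7 to K10D11.6, on either side of dod-22 and dod-17. The 3 higher genes stand from srlf-5 to F55G11.1, on either side of dod-21 and dod-24. Both genes called lower stand between dod-22 and dod-17. They were mbug-1, with a ratio of -2.72 ± 0.174 and an adjusted p of 9.54e-14, and F55G11.2, with a ratio of -1.63 ± 0.263 and an adjusted p of 1.47e-10 (limma; SD, n = 3). The 1 gene between dod-21 and dod-24, C32H11.11, was called higher, at 1.54 ± 0.237 (adjusted p = 1.33e-10, limma). Neighbours at that end of the run thus differed in direction. The other gene called higher was srlf-5, at 1.40 ± 0.218 (adjusted p = 1.94e-10, limma), whose probe was well above background on 4 of 6 arrays in N2.

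**Figure D3:**
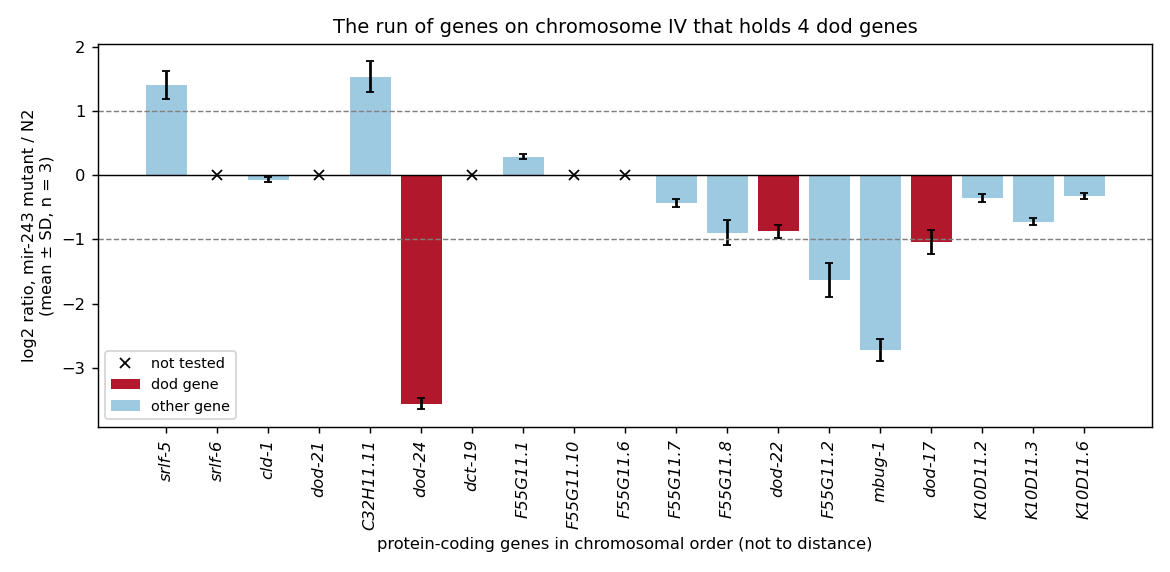
Log2 ratio of mir-243 mutant over N2 (y axis, mean ± SD, n = 3) for 19 protein-coding genes of chromosome IV in their order (x axis, not to distance), with dod genes in red, other genes in blue and crosses for genes without a tested value. The genes dod-24, mbug-1, F55G11.2 and dod-17 lie below the 2-fold line, and C32H11.11, beside dod-24, and srlf-5 lie above it.

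Elsewhere, skpo-1, a haem peroxidase gene known for a part in pathogen resistance and the next gene to dod-23, was called lower at -2.24 ± 0.0931 (adjusted p = 8.44e-14, limma). On the other side of dod-23, F49E12.8 was called higher at 1.32 ± 0.0872 (adjusted p = 1.23e-11, limma). With this processing, none of the tested neighbours of dod-3, dod-6, dod-19 or dod-20 was called, and beside dod-3 only str-33 was tested. Of 28 neighbouring genes tested, taking the 3 nearest on either side of each dod gene, 3 were called lower and 3 higher. The shares over all tested probes were 7.09% and 9.18%. The median ratio of the neighbours was -0.051. With the deposited ratios the number of neighbours called was 16, while 2321 of all 16812 tested probes were called lower and 2197 higher.

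Among components of the insulin pathway that acts on DAF-16, 3 probes were at least 2-fold lower. This list and the gene lists below were chosen with earlier results of these data known. Their counts, medians and p-values are therefore a description. Of 25 tested probes of the receptor, its cascade and proteins acting on DAF-16, 13 were lower and 10 higher with an adjusted p under 0.05, 3 were called lower and none higher, and the median was -0.13. Over all tested probes, 41.3% were lower and 42.3% higher at that adjusted p, whatever the fold, and 7.09% were called lower and 9.18% higher. Those called included pdk-1, a kinase of the cascade, at -1.18 ± 0.111 (adjusted p = 6.42e-11, limma), and hcf-1, a nuclear partner that restrains DAF-16, at -1.09 ± 0.105 (adjusted p = 1.22e-10, limma), whose ratio was -0.97 with the mutant in Cy3 only. The receptor gene daf-2 had a ratio of -0.23 ± 0.0505 (adjusted p = 0.000282, limma). The 3 probes of daf-16 had ratios of -0.25, -0.13 and 0.0085, with adjusted p of 0.000184, 0.0157 and 0.870 (limma), and the last turned negative under 7 of 16 alternatives, median centring, the scanner's signals, the deposited ratios and the omission of replicate 1 or 2 among them. The gene pqm-1 rose by 0.70 ± 0.0635 on the log2 scale (adjusted p = 4.31e-09, limma).

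Genes known to be raised by DAF-16 did not move as a block. Of 16 tested probes, 3 were called lower and 2 higher, beside 7.09% and 9.18% of all tested probes, and the median was -0.088. The lower ones were the lysozyme gene lys-7 (-1.93 ± 0.0465), lea-1, which encodes a desiccation protein (-1.74 ± 0.126), and the saposin-like spp-1 (-1.02 ± 0.101). The call of spp-1 was lost without replicate 1 (-0.97), with the mutant in Cy3 only (-0.97) and with outlier spots kept (-0.99). The higher ones were the small heat shock gene hsp-12.6 (1.44 ± 0.222) and scl-1 (1.36 ± 0.215), whose probe was well above background in N2 on 1 of 6 arrays. The superoxide dismutase gene sod-3, a common readout of DAF-16, had a ratio of -0.083 ± 0.109 (adjusted p = 0.130, limma).

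Outside the dod group, 5 genes known to be lower when insulin signalling is low were tested, with a median of -1.26. Of these, 3 were called lower and none higher, beside 7.09% and 9.18% of all tested probes. They were the yolk protein genes vit-5 (-3.44 ± 0.0933) and vit-2 (-2.23 ± 0.0325) and the DNase gene nuc-1 (-1.26 ± 0.114). The vit-5 and vit-2 probes are counted again among the vitellogenins below. The insulin-like peptide gene ins-7, at -0.98 ± 0.0361 (adjusted p = 1.02e-10, limma), did not reach 2-fold, but was called at -1.30 with an offset of 10 and at -1.75 with the deposited ratios and the scanner's signals.

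Pathogen-response genes of the intestine were called in both directions. Of 22 tested probes, 5 were called lower and 4 higher, beside 7.09% and 9.18% of all tested probes, and the median was -0.053. Among those lower were irg-4 (-2.08 ± 0.0867), the lectin gene clec-4 (-1.53 ± 0.136), irg-3 (-1.47 ± 0.192) and sysm-1, which is known to depend on the p38 MAP kinase pathway (-1.24 ± 0.0878). Those higher were irg-1 (2.27 ± 0.159), the lectin gene clec-60 (1.54 ± 0.115) and 2 probes of tir-1, an adaptor upstream of that pathway (1.55 ± 0.0494 and 1.24 ± 0.111). Each of these 8 probes had an adjusted p under 0.05 by limma.

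**Figure D4:**
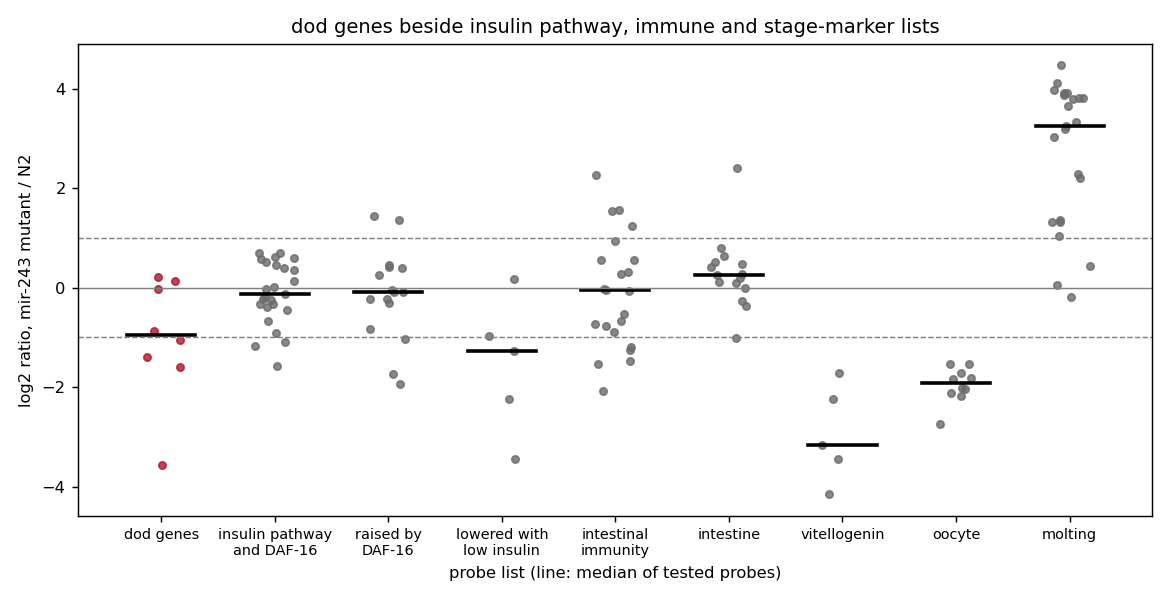
Log2 ratio of mir-243 mutant over N2 (y axis) for each tested probe of the dod genes (red) and of 8 gene lists (grey, x axis), with a line at the median. The dod median was -0.96, and the lists ran from -3.17 for vitellogenins to 3.24 for molting genes.

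Markers of tissue and stage also differed between the genotypes. Their lists were likewise chosen with earlier results known, so their counts are a description. For scale, 7.09% of all tested probes were called lower and 9.18% higher. Of 15 tested intestine probes, ges-1, a gut esterase gene, was called lower at -1.01 ± 0.0335, pgp-1, a transporter gene, was called higher at 2.40 ± 0.0990, and the median was 0.26. Without replicate 1, ges-1 was at -0.99 and was not called. The summed intensity of the intestine probes ran from 93756 to 103269 in mutant replicates and from 84493 to 96943 in N2. The 5 tested vitellogenin genes, which adult intestine makes for yolk, were all called lower, with a median of -3.17 and sums of 8592 to 9543 in the mutant against 95776 to 111704 in N2. The ratios of vit-1 and vit-4 were -4.15 and -3.17. All 10 tested oocyte probes were called lower, with a median of -1.92 and sums of 68144 to 72252 in the mutant against 313497 to 340558 in N2. The lowest were perm-2 (-2.74), the yolk receptor gene rme-2 (-2.17), cpg-1 (-2.11) and cpg-2 (-2.03). Of 23 tested molting probes, 20 were called higher, with a median of 3.24 and sums of 161863 to 181005 in the mutant against 15458 to 17392 in N2. The highest were the cuticle collagen genes dpy-2 (4.47) and dpy-7 (4.12), noah-1 (3.98) and mlt-11 (3.92). Each tested probe of these 4 lists was well above background on at least 1 array in each genotype. Both genotypes were labelled as young adults, and the part of these differences in the dod ratios was not tested.

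**Figure D5:**
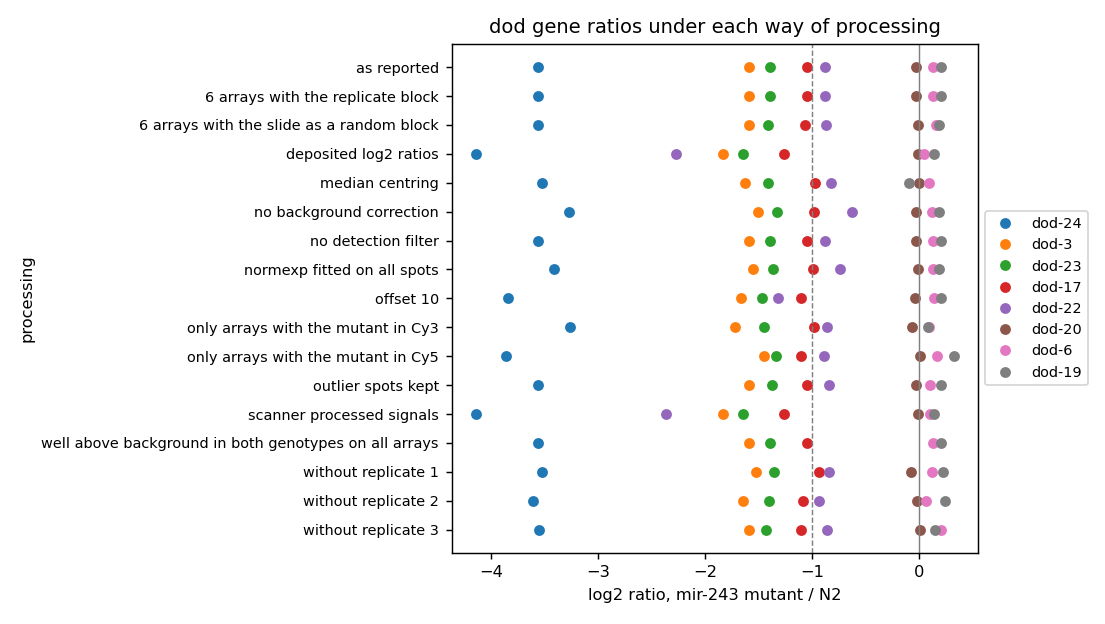
Log2 ratio of mir-243 mutant over N2 (x axis) for 8 dod genes (colours) under each way of processing (y axis), with the dashed line at 2-fold lower. The genes dod-24, dod-3 and dod-23 lie beyond the line in all, dod-17 in 11 of 16 alternatives and dod-22 in 3 of 15, and dod-19 lies below 0 with median centring.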

How the data were processed

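Trizol was used to isolate total RNA per the labels, and each cDNA received both dyes. Per the file headers, spots were read with Agilent Feature Extraction 10.5.1.1, while the submitters' processing notes name 8.5.1.1. The deposited spot intensity and local background intensity, as medians over pixels, were not normalised. The authors also deposited a log10 ratio of Cy5 over Cy3 per spot and a log2 ratio per probe, used as alternatives. The deposited log2 ratios matched the scanner's within 0.001 for 88.0% to 90.8% of probes, with the sign not turned on swapped arrays, and column medians ran from -0.11 to 0.066. Other deposited columns held quality marks.

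Background was corrected with normexp (offset 50, limma 3.58.1, R 4.3.3, data.table package, version 1.17.8) on spots without outlier marks. Controls were dropped, ratios were normalised by loess, marked spots were set missing, levels by genotype came from Aquantile scaling, spots of a probe were averaged and arrays were turned to mutant over N2. Both orientations were averaged, so n was 3. A probe was tested when well above background on at least 4 of 6 arrays in 1 genotype with all replicates present. Two-sided p-values of the ratio against 0 came from lmFit and eBayes and were adjusted by Benjamini-Hochberg across all tested probes. The pipeline was tested on simulated data.

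Names were matched to RefSeq genes on WBcel235 for 19057 of 20401 probes; 564 had no gene name. That table gave names and gene order only, and no positions are printed because the probes' build was not given in the sources used here. The members, all lists and the spots kept for the background fit were chosen with earlier results of these data known. Named were all dod genes, the called probes of each list (up to 4 in each direction), daf-2, daf-16, pqm-1, the called neighbours, and the 3 nearest patterns to the lowest and highest dod gene; sod-3, ins-7 and dod-18 were added after their values were seen. Lists covered the insulin pathway, genes raised or lowered with low insulin signalling, intestinal immunity, intestine, vitellogenins, molting and oocytes. Promoters and proteins were not analysed here, and 1 called gene of the lists is not reported here.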

Additional observations from a re-analysis of the deposited data

Results flagged for a closer look

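One dod gene had 1 array far from the other 5. For dod-20, whose probe is dim, the replicate 1 array that carried mutant cDNA in Cy5 gave a log2 ratio of 0.25, while the other 5 arrays lay between -0.11 and -0.00090. Its gap to the nearest array was 0.688 of the whole range. Of 18 measures looked at in this way, this was the one that stood apart, and chance flags about 1 in 20 groups.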

How the results depend on the processing

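The number of dod genes at least 2-fold lower ran from 3 to 5 over 16 alternatives, none gave a dod gene at least 2-fold higher, and the median kept its sign. The median of -0.96 was -1.45 with the deposited ratios, -0.80 without background correction, -1.21 with an offset of 10, -1.45 with the scanner's processed signals and -1.22 over probes that exceeded background in each genotype on every array, which leaves out dod-20 and dod-22. Leaving out 1 replicate gave -1.01 to -0.89. With the deposited ratios, 16 neighbours and 14 immunity probes were called, and with the processed signals 15 neighbours. Intestine calls numbered 1 without background correction, with normexp on all spots and with the mutant in Cy3 only. Calls over all probes were 2321 lower and 2197 higher with the deposited ratios, 2214 and 2128 with the processed signals, and 1498 and 1382 with median centring, beside 1153 and 1494. The cause was not tested. With the replicate block over 6 arrays the median was -0.96, and no count among the dod genes or lists changed. Mutant and N2 samples of 1 number share their arrays, and their deviations correlated at 0.0996, 0.132 and 0.0474. The slide as a random block, chosen after seeing the data, gave -0.97. Promoter motifs, protein identity and a CUB-like family list were planned and not run. Dim probes, dod-22 and dod-20 above all, are limited by signal over background.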
